A study of Mus musculus with 12 samples.

Results

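The comparison described here asks whether large peritoneal macrophages that lack Tim4 change their gene expression after a tumour cell challenge to the same extent as wild-type (WT) macrophages. It is an interaction: the challenge response of Tim4KO cells minus the challenge response of WT cells, each response being the log2 change from naive to challenged cells. All 12 libraries of the series entered it, 3 in each of 4 groups. Most results are also given for the 11 libraries without WT ID8 3, the third library of challenged WT cells. A negative interaction means that the change from naive to challenged was lower in Tim4KO cells than in WT cells, through a smaller rise, a fall, or a larger fall.

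The groups are naive WT and Tim4KO cells and challenged cells of both genotypes, named WT ID8 and Tim4KO ID8, all from female mice and all sorted from the peritoneal cavity as F4/80-high, MHC class II-low cells. WT ID8 and Tim4KO ID8 cells came from mice of 8 weeks that had received ID8ZGO, a line of the ID8 mouse ovarian tumour expressing ZsGreen and the model antigen OVA, into the peritoneum 24 h earlier. Only ZsGreen-positive macrophages were kept from these mice, whereas naive cells had no such gate, so that challenge and selection for tumour uptake cannot be told apart in either genotype. The labels give no allele for Tim4KO, no age for naive mice, and do not say whether the libraries came from separate animals. The p-values therefore measure only the spread between these libraries, which may be technical. In bulk RNA a lower level can also mean fewer cells of a type or less RNA per cell, which cannot be told apart.

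Tim4, encoded by Timd4, is a membrane receptor of resident macrophages that binds phosphatidylserine, a lipid exposed on the surface of dying cells. It tethers such cells so that other receptors can drive their engulfment, the process called efferocytosis. In the peritoneal cavity it marks long-lived resident macrophages, whose identity depends on the transcription factor Gata6. The title of the series concerns the presentation of tumour antigens by these cells, and its design text asks which transcripts change with phagocytosis when Tim4 is present or absent.

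Total counts ran from 7358559 to 23170244 per library. Levels are given as CPM, read counts relative to library size, with TMM scaling, singly or as mean ± SD of 3 libraries, and a count of 3 corresponds to 0.130 to 0.408 CPM. The 9 genes that define large peritoneal macrophages, among them Gata6 and Adgre1, summed to between 15900 and 24700 CPM in all 4 groups. Markers of 8 other cell types stayed low, the highest sum being that of neutrophil genes, at 188 to 286 CPM in naive and 80.4 to 124 CPM in challenged libraries. Csf3r made up most of it, at 169 to 250 CPM in naive and 60.1 to 82.9 CPM in challenged libraries. Other neutrophil genes moved both ways. S100a8 went from 4.40 to 7.38 CPM in naive to 9.13 to 24.8 CPM in challenged libraries, and Mmp9 from 10.3 to 38.0 CPM to 8.08 to 13.1 CPM. Markers of small peritoneal macrophages and dendritic cells summed to 59.5 CPM in WT ID8 3 and to 21.1 to 38.3 CPM in the other challenged libraries. The members differed. In WT ID8 3 Mgl2 was at 27.6 CPM against 6.69 to 11.4 CPM, and Ccr2, Cd209a and Batf3 were also highest there. Zbtb46 (3.19 against 3.09 to 5.48 CPM) and Itgax (0.228 against 0.0859 to 1.48 CPM) lay inside the range of the others. Flt3 was at 0 CPM in WT ID8 3, against 0.172 to 1.02 CPM. One library stood apart: in WT ID8 3 the 39 genes of a cell cycle list summed to 5750 CPM, while the other 5 challenged libraries had 1165 to 1739 CPM. That library also had the lowest summed level of 1946 olfactory and vomeronasal receptor genes, 6.25 CPM, against 41.9 to 836 CPM elsewhere, and the lowest limma sample quality weight, 0.168. Tim4KO naive 1 had the next lowest weight, 0.499. The part of these differences in the results below was not tested beyond leaving the libraries out.

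Timd4 itself was measured first, since it is the targeted gene. Its level was 1178, 1279 and 1489 CPM in WT naive cells and 1115, 1452 and 882 CPM in WT ID8 cells. In Tim4KO naive cells it was 7.71, 7.32 and 7.21 CPM, and in Tim4KO ID8 cells 1.92, 1.85 and 1.38 CPM, so every Tim4KO library lay far below every WT library. The residual reads were 55 to 128 counts in naive and 20 to 25 counts in challenged Tim4KO libraries. They fell with challenge by 2.13 on the log2 scale (edgeR adjusted p = 3.8e-05), while the WT level changed by -0.19 (edgeR adjusted p = 0.357), which gave an interaction of -1.93 (SE 0.28, edgeR adjusted p = 0.0888). In the fit without WT ID8 3, the interaction was -2.10 (SE 0.27, edgeR adjusted p = 0.000114).

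Over all 12 libraries the edgeR quasi-likelihood test called 0 of 15943 genes for the interaction at an adjusted p under 0.05 (0.0%), the smallest adjusted p being that of Timd4. At an unadjusted p under 0.05 it listed 1186 genes, 7.44% of those tested, 491 higher and 695 lower. Other tools on the same libraries called few: DESeq2 called 11 genes, limma voom 0, and limma voom with sample quality weights 5. Between naive and challenged cells many genes changed in both genotypes, 5067 in WT (31.8%) and 2642 in Tim4KO (16.6%) with 12 libraries. Of these, 3105 rose (19.5%) and 1962 fell (12.3%) in WT, and 1836 rose (11.5%) and 806 fell (5.06%) in Tim4KO, but with upper-quartile scaling 1799 rose and 3508 fell in WT and 1322 rose and 1394 fell in Tim4KO. The WT count was 3362 without WT naive 3, and the Tim4KO count 1222 without Tim4KO naive 2, 1484 without Tim4KO naive 3, and 1432, 1420 and 1666 without Tim4KO ID8 1, 2 or 3. In the fit without WT ID8 3, the counts were 5108 in WT and 3595 in Tim4KO. With limma voom and sample quality weights they were 4504 in WT and 5077 in Tim4KO, so which genotype had more was not stable. The median SE of an interaction was 0.32 on the log2 scale. Where the mean count was 50 or more (10229 genes), the 95% interval lay within a 2-fold difference in either direction for 7679 (75.1%).

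Leaving out WT ID8 3 changed this count more than leaving out any other library. The same test then called 368 of 17374 genes (2.12%), 138 higher (0.794%) and 230 lower (1.32%), and listed 2545 (14.6%) at an unadjusted p under 0.05, 1044 higher (6.01%) and 1501 lower (8.64%). The 368 also rest on which further libraries are kept, since leaving out WT ID8 2 as well gave 64 calls, Tim4KO ID8 3 144, Tim4KO ID8 1 237, WT naive 3 238, WT ID8 1 604 and Tim4KO naive 1 634. Upper-quartile scaling gave 282 higher and 200 lower calls, and shifted the median interaction of all genes from 0.02 to 0.14.

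**Figure D1:**
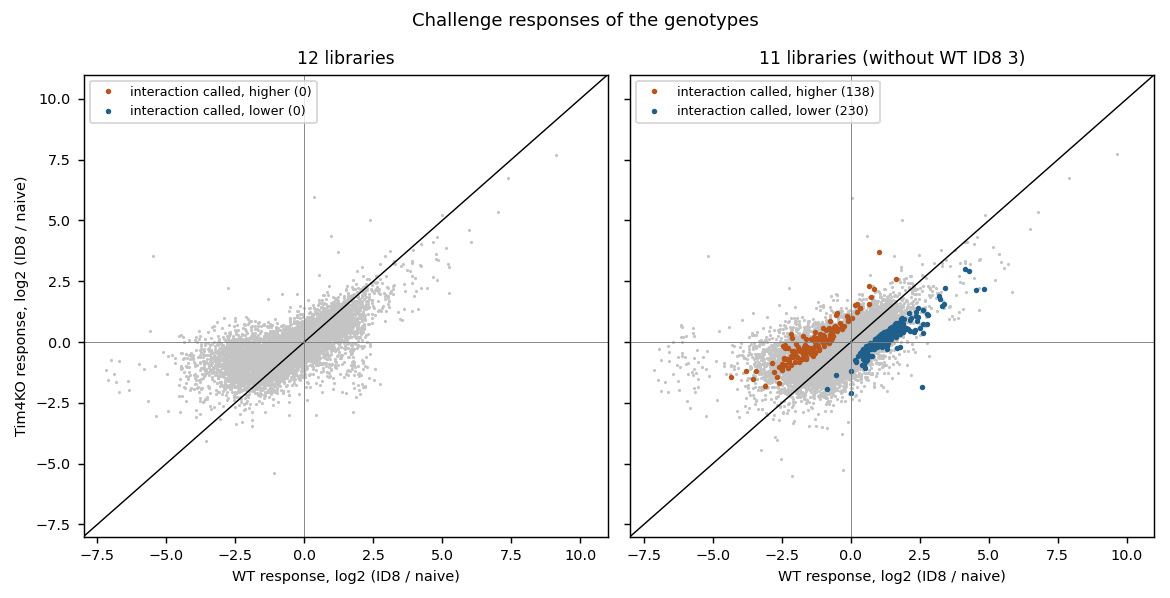
Challenge response of Tim4KO cells (vertical axis, log2 of ID8 over naive) against that of WT cells (horizontal axis, same unit), 1 point per tested gene, with the line of equal response; left, 12 libraries, right, 11 libraries without WT ID8 3. Coloured points are the genes called for the interaction, 0 on the left and 138 higher (orange) and 230 lower (blue) on the right, and the coloured points lie mostly nearer to zero on the vertical than on the horizontal axis.

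Of the 368 genes, 322 had a smaller estimated change in Tim4KO than in WT cells. Of the 230 with a lower interaction, 227 had a positive estimated response in WT, with a median of 1.23 in WT and 0.26 in Tim4KO on the log2 scale. Of the 138 with a higher interaction, 126 had a negative estimated response in WT, with a median of -1.34 in WT and -0.09 in Tim4KO. For 331 of the 368 the estimated gap between the genotypes was larger in challenged than in naive cells. These counts describe genes chosen by the same contrast and are no further test. With WT ID8 3 as the only challenged WT library, a fit that shares its naive and Tim4KO libraries with the other, the 230 genes had a median interaction of -0.24 and the 138 a median of -0.01. That arm has 1 library and no spread of its own, so its values are given here and below with no test. At the median, the difference seen without WT ID8 3 was thus much smaller in that library for the first set and near 0 for the second. In the fit to 12 libraries the medians were -0.79 and 0.70.

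Hsp90aa1, the inducible form of the cytosolic chaperone HSP90, had the second smallest interaction p after Timd4. Its level was 87.3, 88.4 and 87.4 CPM in WT naive and 107, 85.2 and 84.8 CPM in Tim4KO naive libraries. After challenge it reached 609, 603 and 327 CPM in WT and 187, 208 and 195 CPM in Tim4KO libraries. The naive groups overlapped, the challenged groups did not, and WT ID8 3 lay between WT ID8 1 and 2 and the Tim4KO libraries. Hsp90aa1 rose in both genotypes, by 2.55 in WT and 1.09 in Tim4KO on the log2 scale. The interaction was -1.46 (SE 0.27, edgeR adjusted p = 0.432) with 12 libraries and -1.70 (SE 0.20, edgeR adjusted p = 5.49e-05) without WT ID8 3. It stayed below the threshold in all 11 fits that left out 1 more library. With WT ID8 3 as the only challenged WT library it was -0.91.

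The tubulin genes Tubb6, Tuba1c and Tubb4b followed the same direction with any choice of the WT ID8 libraries. Tubb6, a beta-tubulin, was at 350, 344 and 374 CPM in WT ID8 and at 230, 230 and 196 CPM in Tim4KO ID8 libraries, which did not overlap. The naive levels did overlap, at 111 ± 12.9 CPM in WT and 140 ± 28.8 CPM in Tim4KO (SD, n = 3). Tubb6 rose by 1.69 in WT and 0.65 in Tim4KO, an interaction of -1.04 (SE 0.21) that was -1.0 without WT ID8 3 (edgeR adjusted p = 0.432 and 0.0174). Tuba1c, an alpha-tubulin, had an interaction of -0.98 with 12 and -0.88 with 11 libraries (edgeR adjusted p = 0.636 and 0.0408). Tubb4b had -1.17 and -0.92 (edgeR adjusted p = 0.668 and 0.0314). Tubulin genes have near-identical copies among which reads can be split, and an exon of Tubb4b overlaps Fam166a on the other strand, so these values are uncertain to that extent. Kpna2, a nuclear import receptor, had an interaction of -1.29 with 12 and -0.92 with 11 libraries (edgeR adjusted p = 0.668 and 0.0251), and its level in WT ID8 3, 342 CPM, was well above the 171 and 191 CPM of the other challenged WT libraries.

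Id1, an inhibitor of basic helix-loop-helix transcription factors and a common target of BMP and TGF-beta signalling, rose in WT cells. It went from 6.93, 10.1 and 7.89 CPM in WT naive to 28.8, 43.4 and 30 CPM in WT ID8 libraries. In Tim4KO libraries it was 10.6, 7.86 and 6.59 CPM before and 10.1, 14.2 and 9.34 CPM after challenge. All 3 challenged WT libraries, WT ID8 3 included, lay above all 9 others. The response was 2.03 in WT (edgeR adjusted p = 3.44e-05) and 0.42 in Tim4KO (edgeR adjusted p = 0.251), and the interaction was -1.61 (SE 0.33, edgeR adjusted p = 0.432) with 12 and -1.70 (SE 0.32, edgeR adjusted p = 0.00624) with 11 libraries. Of 19 tested genes of ID proteins and of TGF-beta and BMP signalling, Id1 alone was called without WT ID8 3, and the median interaction was -0.12 in both fits, against 0.01 and 0.02 over all tested genes.

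Cd244a, which encodes the 2B4 receptor of the SLAM family, and Map3k6, a stress kinase, lay apart between the genotypes before challenge and overlapped after it. Cd244a was at 61.5, 58.3 and 65.5 CPM in WT naive and 103, 108 and 92.0 CPM in Tim4KO naive libraries, which did not overlap. After challenge it was at 109 ± 15.2 CPM in WT and 96.0 ± 6.71 CPM in Tim4KO (SD, n = 3), and these overlapped. The interaction of Cd244a was -0.90 (SE 0.18) with 12 and -0.89 with 11 libraries (edgeR adjusted p = 0.432 and 0.0239). Map3k6 went from 6.68 ± 0.526 to 11.5 ± 0.671 CPM in WT and from 13.9 ± 1.91 to 11.3 ± 1.11 CPM in Tim4KO cells (SD, n = 3), an interaction of -1.09 with 12 and -1.11 with 11 libraries (edgeR adjusted p = 0.481 and 0.0204). Rnd3, a small GTP-binding protein that opposes actin contractility, fell in both genotypes, by 0.84 in WT and by 1.96 in Tim4KO on the log2 scale. Its naive level was 31.1 ± 2.18 CPM in WT and 49.0 ± 6.56 CPM in Tim4KO (SD, n = 3), without overlap, and the challenged groups overlapped. The interaction of Rnd3 was -1.11 with 12 and -1.06 with 11 libraries (edgeR adjusted p = 0.432 and 0.0196). Lipn, a lipase, rose from 2.81 ± 0.326 to 19.3 ± 3.71 CPM in WT and from 4.50 ± 1.16 to 10.8 ± 1.94 CPM in Tim4KO (SD, n = 3), with an interaction of -1.49 and, without WT ID8 3, -1.31 (edgeR adjusted p = 0.481 and 0.0327).

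Other genes with a low p in the fit to 12 libraries were lower in the same way. Timm8a1, a chaperone of mitochondrial import, had an interaction of -1.64 with 12 and -1.87 with 11 libraries (edgeR adjusted p = 0.636 and 0.00631). Prpf4, a splicing factor, had -0.87 and -0.95 (edgeR adjusted p = 0.636 and 0.0188), and Srrt, which acts in RNA processing, -0.78 and -0.82 (edgeR adjusted p = 0.668 and 0.0357). Dcbld2, a membrane receptor, had -1.21 and -1.17 and was called in neither fit (edgeR adjusted p = 0.668 and 0.0587), and an exon of it overlaps St3gal6 on the other strand. Fkbp5, a co-chaperone induced by glucocorticoids, was among the 11 calls of DESeq2 but was called by edgeR in neither fit, with interactions of -2.72 and -2.43 (edgeR adjusted p = 0.668 and 0.162). Its Tim4KO naive level was 22.4, 67.1 and 19.4 CPM, against 6.48 to 8.52 CPM in WT naive libraries, so that Tim4KO naive 2 stood above the other naive libraries.

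**Figure D2:**
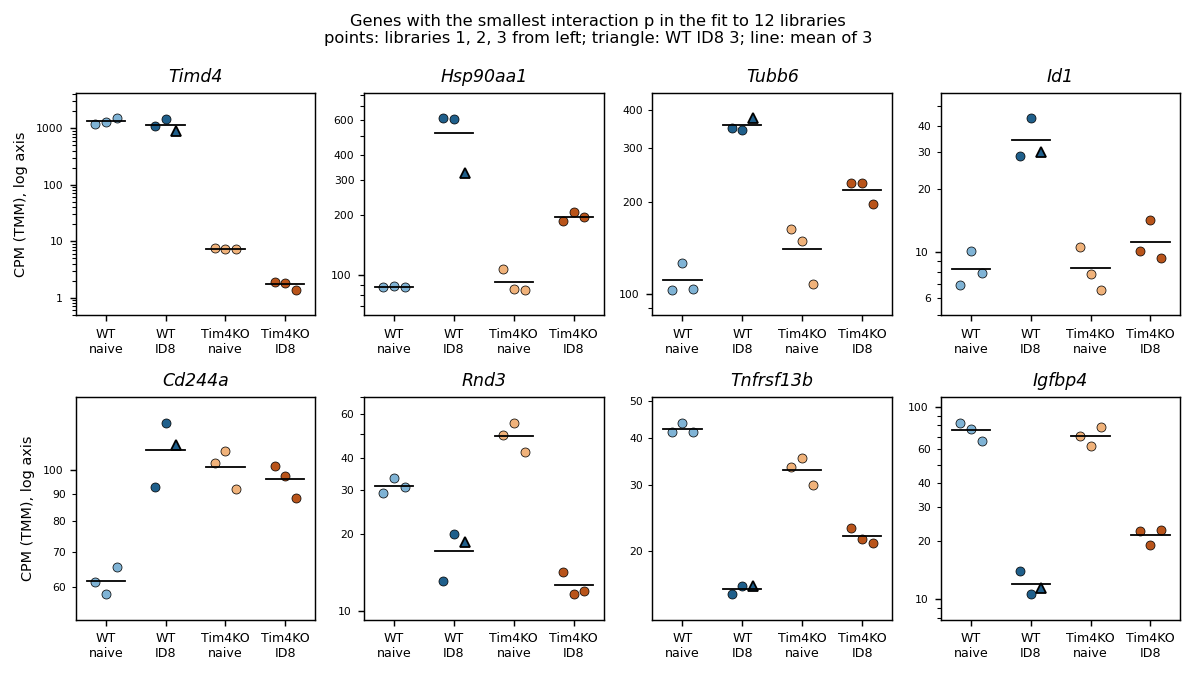
Levels of 8 genes in every library (CPM, log axis), 3 points per group in order of library number, the triangle marking WT ID8 3 and the line the mean of 3. Id1 and Tubb6 are higher in all 3 WT ID8 libraries than in any Tim4KO ID8 library, and the naive groups of Cd244a and Rnd3 lie apart while their challenged groups overlap.

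Among genes with a higher interaction, Tnfrsf13b, which encodes the BAFF and APRIL receptor TACI, had the smallest p with 12 libraries. It was at 41.5, 43.9 and 41.4 CPM in WT naive and 33.5, 35.3 and 30.1 CPM in Tim4KO naive cells. After challenge it was at 15.4, 16.2 and 16.2 CPM in WT and 23.1, 21.6 and 21.1 CPM in Tim4KO cells. The genotypes did not overlap in either state, and their order reversed. Tnfrsf13b fell by 1.41 in WT and by 0.59 in Tim4KO on the log2 scale, an interaction of 0.82 in both fits (edgeR adjusted p = 0.432 with 12 and 0.0313 with 11 libraries). Igfbp4, a binding protein of insulin-like growth factors, fell from 75.4 ± 8.07 to 12.1 ± 1.76 CPM in WT and from 70.6 ± 8.08 to 21.5 ± 2.01 CPM in Tim4KO cells (SD, n = 3). Its interaction was 0.94 (SE 0.20) and, without WT ID8 3, 0.90 (edgeR adjusted p = 0.481 and 0.0307). For Igfbp4, WT ID8 3 at 11.5 CPM lay between the other challenged WT libraries.

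Vat1, a vesicle amine transport protein, rose by 1.21 in WT and by 3.69 in Tim4KO cells on the log2 scale. It stood at 17.9, 21.4 and 18.7 CPM in WT naive and at 5.74, 1.33 and 2.03 CPM in Tim4KO naive libraries. After challenge the groups overlapped, at 44.8 ± 10.5 CPM in WT and 40.1 ± 7.63 CPM in Tim4KO (SD, n = 3). The interaction of Vat1 was 2.48 (SE 0.50, edgeR adjusted p = 0.481) with 12 and 2.68 (SE 0.51, edgeR adjusted p = 0.0278) with 11 libraries, and it was called with 12 libraries by DESeq2. An exon of Vat1 overlaps Rnd2 on the other strand, and how strand was handled in counting is not given in the sources used here. Selenom, a selenoprotein of the endoplasmic reticulum, fell by 0.85 in WT and had a response of 0.27 in Tim4KO (edgeR adjusted p = 0.00537 and 0.397), with an interaction of 1.12 and, without WT ID8 3, 1.33 (edgeR adjusted p = 0.668 and 0.00679). Pold4, a subunit of DNA polymerase delta, had 0.94 and 1.15 (edgeR adjusted p = 0.668 and 0.00631), and Arl3, a small GTPase of ciliary transport, 0.72 and 0.85 (edgeR adjusted p = 0.668 and 0.0338). Exons of Pold4 overlap the protein-coding gene AC109138.7 on the same strand. Gabarapl1, an autophagy protein, Hal, which degrades histidine, Tha1, Iah1, Trib2 and Ikzf2 had interactions between 0.63 and 1.39 with 12 libraries, and edgeR called them in neither fit.

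Heat shock chaperones were the group with most calls. These proteins fold new and damaged polypeptides in the cytosol and in mitochondria, and many of their genes are driven by the heat shock factor HSF1, which binds inverted repeats of the letters GAA. Of 24 tested genes, 20 had an interaction below 0 with 12 libraries, where 49.1% of all tested genes did, and 6 were lower and 0 higher at an unadjusted p under 0.05, where 4.36% and 3.08% of all genes were. The median was -0.32, and without WT ID8 3 it was -0.46 with 7 of the 24 called lower, where 1.32% of all genes were. The called genes were Hsp90aa1, Hsph1, Hspd1, Stip1, Chordc1, Cacybp and Ptges3. By library the summed level of the 24 genes was 6648, 8846 and 5139 CPM in WT ID8 and 5102, 5830 and 4812 CPM in Tim4KO ID8, so WT ID8 3 lay inside the Tim4KO range. Naive sums were 3138 to 3323 CPM in WT and 3297 to 4417 CPM in Tim4KO, the highest being Tim4KO naive 1.

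Hsph1, a large co-chaperone of HSP70, gave the clearest example of this dependence. It was at 25.7, 24.8 and 22.8 CPM in WT naive and 50.8, 31.6 and 36.8 CPM in Tim4KO naive libraries. After challenge it was at 116, 153 and 40.3 CPM in WT and at 55.0, 66.6 and 54.0 CPM in Tim4KO libraries. WT ID8 3 was thus below all 3 Tim4KO ID8 libraries, while WT ID8 1 and 2 were above them. The interaction of Hsph1 was -1.52 (SE 0.55, edgeR adjusted p = 0.668) with 12 libraries, -1.92 (SE 0.24, edgeR adjusted p = 0.000112) without WT ID8 3 and -0.28 with it as the only challenged WT library. Chordc1, a partner of HSP90, was at 112, 150 and 59.8 CPM in WT ID8 and at 70.4, 74.0 and 67.9 CPM in Tim4KO ID8 libraries, with an interaction of -1.02 and, without WT ID8 3, -1.32 (edgeR adjusted p = 0.668 and 0.00327).

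The remaining called chaperones rose in WT cells in the fit to 12 libraries, and Hspd1 and Stip1 rose in Tim4KO cells too. Hspd1, the mitochondrial chaperone HSP60, rose from 149 ± 17.9 to 479 ± 153 CPM in WT and from 166 ± 27.7 to 315 ± 45.7 CPM in Tim4KO (SD, n = 3). Its interaction was -0.76 and, without WT ID8 3, -1.0 (edgeR adjusted p = 0.668 and 0.0182), and its exons overlap those of its neighbour Hspe1 on the other strand. Stip1, which links HSP70 to HSP90, had -0.92 and -1.16 (edgeR adjusted p = 0.668 and 0.0188). Ptges3, the HSP90 co-chaperone p23, had -0.72 and -0.95 (edgeR adjusted p = 0.668 and 0.0191), and Cacybp -0.77 and -1.07 (edgeR adjusted p = 0.672 and 0.0198).

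Promoter windows of the heat shock genes were searched for the letters of heat shock elements because 7 of the 24 were called. The search was for GAANNTTC or TTCNNGAA, each of which reads the same on both strands, and matches can overlap where repeats adjoin. In the RefSeq table (GRCm38.p6), whose windows run from 250 bases before to 50 bases after a start, 19 of the 24 genes were matched, and 11 of these 19 held a match. By window it was 12 of 25 (48.0%), against 4946 of 32851 windows of all genes (15.1%). A match is a description of letters and not a measured site. The list was made of known heat shock genes, so its share says nothing about the interaction. Members that were not called included genes with and without a match. Stretches from 150 bases before to 30 bases after the start are shown for Hsph1 (chr5:149636307-149636486, minus strand) and Chordc1 (chr9:18292117-18292296, plus strand), both called above, and for Hspe1 (chr1:55087998-55088177, plus strand), which shares its upstream region with Hspd1. Of the other called chaperones, Hspd1 had a match at 1 of 2 starts, Stip1, Cacybp and Ptges3 had no match, and Hsp90aa1 was not matched to a window. Capitals mark the matches.
Hsph1: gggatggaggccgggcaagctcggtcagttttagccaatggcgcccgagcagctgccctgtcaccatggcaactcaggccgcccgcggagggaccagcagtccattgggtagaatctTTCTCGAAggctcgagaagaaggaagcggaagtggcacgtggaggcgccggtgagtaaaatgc
Chordc1: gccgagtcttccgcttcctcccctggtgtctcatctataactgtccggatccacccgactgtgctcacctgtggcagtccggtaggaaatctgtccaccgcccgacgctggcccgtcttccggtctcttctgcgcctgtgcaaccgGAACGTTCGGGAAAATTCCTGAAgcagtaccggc
Hspe1: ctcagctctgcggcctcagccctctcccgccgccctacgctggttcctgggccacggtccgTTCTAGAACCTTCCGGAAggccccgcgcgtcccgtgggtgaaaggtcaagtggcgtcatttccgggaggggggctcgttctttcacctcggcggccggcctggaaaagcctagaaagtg
Within these stretches, the match in Hsph1 begins 33 bases before the start, the first of 3 in Hspe1 89 bases before it, and the first of 4 in Chordc1 4 bases before it. The full windows hold 3 matches for Hsph1 and 5 for Chordc1, the rest lying past the 30 bases shown.

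Inflammatory genes of the NF-kB programme mostly had interactions below 0, and 4 of them were called without WT ID8 3. NF-kB is the transcription factor that switches on cytokines and, in a feedback, their inhibitors in stimulated macrophages. Of 33 tested genes, 31 had an interaction below 0 with 12 libraries, 4 were lower and 1 higher at an unadjusted p under 0.05, where 4.36% and 3.08% of all genes were, and the median was -0.42. Without WT ID8 3 the median was -0.63, 17 were lower and 1 higher at an unadjusted p under 0.05, where 8.64% and 6.01% of all genes were, and 4 were called lower, where 1.32% were: Acod1, Il1rn, Sod2 and Marcksl1. Acod1, which makes the antimicrobial metabolite itaconate, was at 2.47 to 4.87 CPM in the 6 naive libraries. It reached 70.2, 108 and 16.7 CPM in WT ID8 and 11.7, 17.5 and 15.4 CPM in Tim4KO ID8 libraries, WT ID8 3 falling inside the Tim4KO range. Its interaction was -1.94 (SE 0.85, edgeR adjusted p = 0.668) with 12 and -2.43 (SE 0.34, edgeR adjusted p = 0.00124) with 11 libraries.

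Sod2, the mitochondrial superoxide dismutase, was at 415, 509 and 150 CPM in WT ID8 and 182, 221 and 183 CPM in Tim4KO ID8 libraries, against 105 to 156 CPM in naive ones. Its interaction was -0.87 with 12 and -1.25 with 11 libraries (edgeR adjusted p = 0.697 and 0.00447), and 0.28 with WT ID8 3 as the only challenged WT library. Il1rn, the antagonist of the interleukin-1 receptor, had -1.56 and -2.01 (edgeR adjusted p = 0.668 and 0.00598), and Marcksl1 -0.96 and -1.36 (edgeR adjusted p = 0.684 and 0.0017). The cytokines themselves were not called: Il6 had an interaction of -0.86 with 12 and -1.09 with 11 libraries, Tnf -1.42 and -1.79, and Il1b -1.49 and -2.01 (edgeR adjusted p between 0.171 and 0.719). Tnf reached at most 5.76 CPM and Il1b at most 4.6 CPM. Lcn2, which binds bacterial siderophores, was at 48.2, 116 and 87.5 CPM in WT ID8 and 28.4, 23.5 and 25.0 CPM in Tim4KO ID8 libraries, without overlap. Its interaction was -1.27 with 12, -1.25 with 11 libraries (edgeR adjusted p = 0.668 and 0.358), and -1.41 with WT ID8 3 alone.

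Chemokines, which recruit leukocytes, gave the same picture with wide errors. Of 19 tested, 15 had an interaction below 0 with 12 libraries and the median was -0.78. In the fit without WT ID8 3, it was -0.75, and 2 were called lower, where 1.32% of all genes were. Without Tim4KO naive 1 the median was -0.25, and with both libraries left out 0 chemokines were called by edgeR, with 7 lower at an unadjusted p under 0.05, where 9.38% of all genes were. Ccl2, which attracts monocytes, was at 54.0, 93.8 and 15 CPM in WT ID8 and 8.38, 14.9 and 15.2 CPM in Tim4KO ID8 libraries, with an interaction of -2.78 (SE 1.25) and, without WT ID8 3, -3.32 (SE 1.04), neither called (edgeR adjusted p = 0.668 and 0.189). Ccl7 had -3.21 and -3.78 (edgeR adjusted p = 0.668 and 0.115). The called genes were Ccl12, at 0.115 to 3.78 CPM in all libraries, and Cxcl13, which attracts B cells and is abundant here. Cxcl13 was at 1325, 2289 and 3052 CPM in WT naive and 3696, 3893 and 4195 CPM in Tim4KO naive libraries, without overlap. After challenge it was at 3221, 2997 and 822 CPM in WT and 1940, 1802 and 1741 CPM in Tim4KO. Its interaction was -1.18 (SE 0.62, edgeR adjusted p = 0.684) with 12 and -1.59 (SE 0.32, edgeR adjusted p = 0.0163) with 11 libraries. Cxcl12 was the 1 chemokine higher at an unadjusted p under 0.05 with 12 libraries, with an interaction of 0.60 and, without WT ID8 3, 0.46 (edgeR adjusted p = 0.668 and 0.476), after a fall by 3.37 in WT and by 2.76 in Tim4KO on the log2 scale.

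Genes of the interferon response had the lowest median interaction of the 22 lists except for the cell cycle list with 12 libraries, but without Tim4KO naive 1 the acute phase list (-0.66) and the NF-kB list (-0.50) were lower than it too. They are the antiviral genes that type I interferon induces through the factor ISGF3, which binds the interferon-stimulated response element. Of 35 tested, 33 had an interaction below 0 with 12 libraries, and the median was -1.14. At an unadjusted p under 0.05, 10 were lower and 0 higher, where 4.36% and 3.08% of all genes were. The median challenge response was 1.05 in WT, where 18 genes rose, and -0.12 in Tim4KO, where 4 rose. Of all tested genes, 19.5% rose in WT and 11.5% in Tim4KO. Without WT ID8 3 the median interaction was -1.31 and 1 gene was called lower, where 1.32% of all genes were: Oas2, a sensor of double-stranded RNA. Oas2 was at 35.5, 36.7 and 52.3 CPM in WT naive and at 96.2, 73.1 and 71.3 CPM in Tim4KO naive libraries, without overlap, and the challenged groups overlapped at 44.9 to 78.4 and 46.4 to 60.5 CPM. Its interaction was -1.14 (SE 0.29, edgeR adjusted p = 0.668) with 12 and -1.31 (SE 0.25, edgeR adjusted p = 0.00631) with 11 libraries.

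This group depended on Tim4KO naive 1 as well. Ifit1, an inhibitor of viral translation, was at 30.2 CPM in that library and at 8.79 and 7.21 CPM in the other Tim4KO naive libraries, against 6.34 to 8.52 CPM in WT naive ones. After challenge Ifit1 was at 40.1, 58.2 and 16.1 CPM in WT and 14.0, 13.9 and 16.1 CPM in Tim4KO libraries. Its interaction was -2.44 (SE 0.83) with 12 and -2.82 (SE 0.78) with 11 libraries, called in neither (edgeR adjusted p = 0.668 and 0.138). Without Tim4KO naive 1 the median of the list moved from -1.14 to -0.44, with 6 genes lower at an unadjusted p under 0.05, where 3.39% of all genes were. With both that library and WT ID8 3 left out it was -0.61, and 6 of 35 genes were called lower, where 1.85% of all genes were. Rsad2, the antiviral enzyme viperin, had an interaction of -1.71 with 12 and -1.97 with 11 libraries, Usp18, which dampens interferon signalling, -1.27 and -1.52, Xaf1 -1.29 and -1.49, and Ddx58, the RNA sensor RIG-I, -0.76 and -0.94 (edgeR adjusted p = 0.668 with 12 libraries and 0.057 to 0.231 with 11).

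Promoters of the interferon genes were searched for the letters of the interferon-stimulated response element, GAAA repeated after a gap of any 2 bases, or TTTC repeated in the same way for the other strand. Of the 35 genes, 27 were matched in the same RefSeq windows and 16 of them held these letters. By window it was 16 of 34 (47.1%), against 1131 of 32851 windows of all genes (3.44%). This list was made of known interferon response genes, so its share says nothing about the interaction. Ifit1 (chr19:34640739-34640918, plus strand) and Rsad2 (chr12:26456423-26456602, minus strand) are shown as above, the capitals marking the matches.
Ifit1: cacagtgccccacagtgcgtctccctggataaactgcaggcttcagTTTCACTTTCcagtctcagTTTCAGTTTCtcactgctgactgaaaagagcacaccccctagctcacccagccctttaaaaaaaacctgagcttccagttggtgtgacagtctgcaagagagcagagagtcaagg
Rsad2: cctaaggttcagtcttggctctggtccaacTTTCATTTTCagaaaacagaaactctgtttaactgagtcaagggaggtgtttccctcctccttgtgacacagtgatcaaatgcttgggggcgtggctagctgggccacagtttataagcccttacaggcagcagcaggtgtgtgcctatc
The first of 2 matches in Ifit1 begins 104 bases before the start, and that of Rsad2 120 bases before it.

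**Figure D3:**
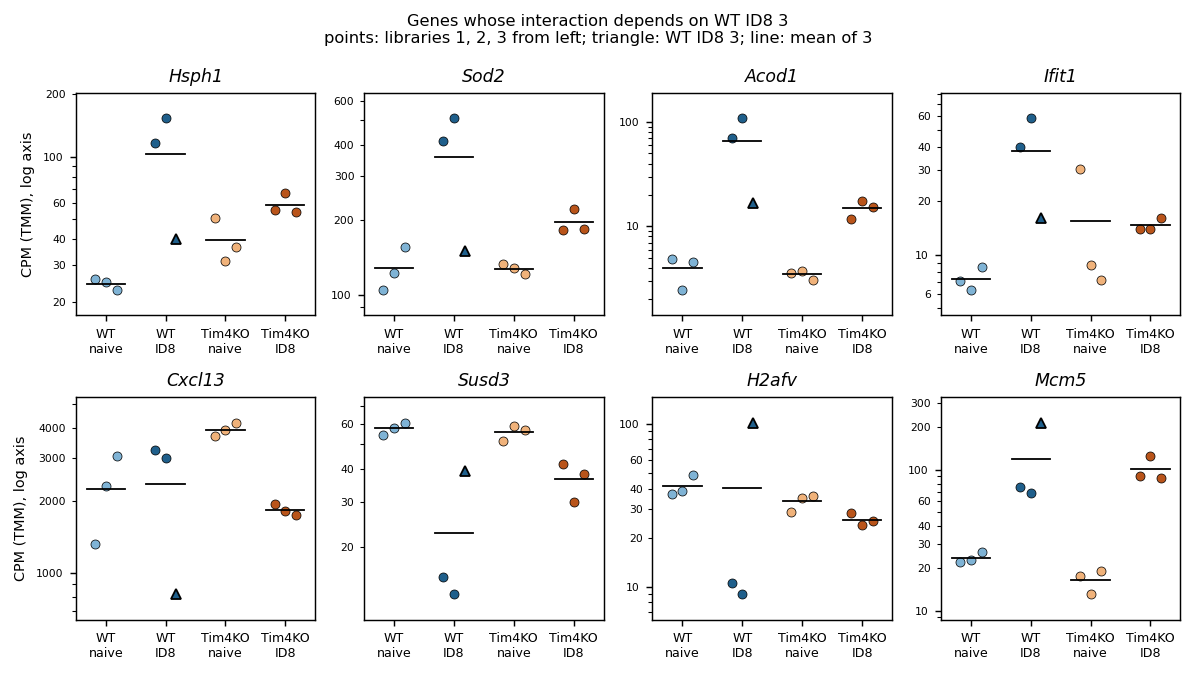
Levels of 8 genes in every library (CPM, log axis), 3 points per group in order of library number, the triangle marking WT ID8 3 and the line the mean of 3. For Hsph1, Sod2, Acod1, Ifit1 and Cxcl13 the triangle lies far below the other 2 WT ID8 libraries, for Susd3, H2afv and Mcm5 far above them.

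Antioxidant and iron genes, many of them targets of the factor NRF2, included 4 calls without WT ID8 3. Of 20 tested, 14 had an interaction below 0 with 12 libraries, with a median of -0.24. Without WT ID8 3 the median was -0.33 and 4 of 20 were called lower, where 1.32% of all genes were. Hmox1, the haem oxygenase, was at 246, 279 and 189 CPM in WT ID8 and at 178, 177 and 171 CPM in Tim4KO ID8 libraries, which did not overlap. Naive levels were 110 ± 17.7 CPM in WT and 140 ± 20.5 CPM in Tim4KO (SD, n = 3). Hmox1 rose by 1.11 in WT (edgeR adjusted p = 0.000191) and had a response of 0.33 in Tim4KO (edgeR adjusted p = 0.181). Its interaction was -0.78 with 12 and -0.92 with 11 libraries (edgeR adjusted p = 0.668 and 0.0215). Txnrd1, a thioredoxin reductase, had -0.69 and -0.85 (edgeR adjusted p = 0.668 and 0.0239), and Slc11a2, an iron transporter, -0.91 and -1.23 (edgeR adjusted p = 0.668 and 0.00634). Tfrc, the transferrin receptor, rose steeply in both genotypes, by 3.72 in WT and 2.98 in Tim4KO, with an interaction of -0.74 and, without WT ID8 3, -1.14 (edgeR adjusted p = 0.736 and 0.01).

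Genes of antigen presentation, the process named in the title of the series, gave 0 calls by edgeR in either fit, where 0.0% of all genes were called with 12 and 2.12% with 11 libraries. Class I processing, which loads peptides for CD8 T cells, had a median interaction of -0.09 over 26 genes with 12 libraries, 2 of them lower and 0 higher at an unadjusted p under 0.05, and of -0.13 without WT ID8 3, with 2 lower and 2 higher. The sign of this median is not stable: it was 0.04 with upper-quartile scaling and 0.14 without Tim4KO naive 1. The 2 genes were Psme3, a proteasome activator, with -0.51 (95% interval -1.0 to -0.03), and Nlrc5, the transactivator of class I genes, with -0.73 (95% interval -1.39 to -0.07; edgeR adjusted p = 0.668 for both). Nlrc5 was at 26.1, 14.9 and 20.4 CPM in WT naive and 41.0, 24.2 and 28.7 CPM in Tim4KO naive libraries, which overlapped. H2-K1, the class I heavy chain, and B2m, its light chain had interactions of 0.13 (SE 0.25) and 0.11 (SE 0.28) with 12 libraries and of 0.25 and 0.24 without WT ID8 3. Class II and costimulation genes had a median of 0.25 over 16 genes with 12 libraries. At an unadjusted p under 0.05, 2 were lower and 0 higher, where 4.36% and 3.08% of all genes were. In the fit without WT ID8 3, the median was 0.46, with 3 lower and 5 higher, where 8.64% and 6.01% of all genes were. The 2 lower with 12 libraries were Cd80, a ligand of CD28, with -0.57 and, without WT ID8 3, -0.66, and Cd274, the inhibitory ligand PD-L1, with -1.24 and -1.62 (edgeR adjusted p = 0.668 for both with 12 libraries, and 0.147 and 0.0796 with 11). The median of that list was -0.09 without WT naive 1.

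The listed oxidative phosphorylation genes, which encode parts of the respiratory chain, lay mostly above 0. Of 31 tested, 5 had an interaction below 0 with 12 libraries, where 49.1% of all tested genes did, and the median was 0.19. At an unadjusted p under 0.05, 1 was lower and 4 higher, where 4.36% and 3.08% of all genes were. In the fit without WT ID8 3, the median was 0.26, 2 were lower and 9 higher at an unadjusted p under 0.05, where 8.64% and 6.01% of all genes were, and 0 were called by edgeR. With Tim4KO naive 1 left out as well it was 0.44 and 10 of 31 were called higher, where 1.83% of all genes were. Uqcrq and Ndufb8, subunits of complexes III and I, had interactions of 0.59 and 0.66 with 12 libraries, and Cycs, the electron carrier cytochrome c, -0.71 (edgeR adjusted p = 0.668 for each). Exons of Ndufb8 overlap the protein-coding gene Gm20538 on the same strand. Uqcrq was at 119, 100 and 80.3 CPM in WT naive and 95.5, 57.5 and 54.3 CPM in Tim4KO naive libraries, and at 160 ± 20.1 and 167 ± 4.35 CPM after challenge (SD, n = 3), so the groups overlapped in both states. Outside the list, mt-Co1, a subunit of complex IV, went the other way. EdgeR called it lower without WT ID8 3, with an interaction of -1.375. With WT ID8 3 as the only challenged WT library it was -0.369.

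Genes called as higher without WT ID8 3 mostly had a negative estimated response in WT. For 132 of these 138, WT ID8 3 lay nearer to the mean of the Tim4KO ID8 libraries than to that of WT ID8 1 and 2. Susd3, a sushi domain protein of the cell surface, was at 57.7 ± 3.14 CPM in WT naive and 55.8 ± 3.75 CPM in Tim4KO naive cells (SD, n = 3). After challenge it was at 15.4, 13.2 and 39.4 CPM in WT and 41.9, 29.9 and 38.5 CPM in Tim4KO libraries. Its interaction was 0.72 (SE 0.45, edgeR adjusted p = 0.714) with 12 and 1.42 (SE 0.23, edgeR adjusted p = 0.0017) with 11 libraries, and -0.14 with WT ID8 3 as the only challenged WT library. Ypel3, a growth-suppressing protein, was at 11.6, 11.3 and 31.9 CPM in WT ID8 and 36.4, 28.2 and 31.3 CPM in Tim4KO ID8 libraries. Its interaction was 0.87 and, without WT ID8 3, 1.58 (edgeR adjusted p = 0.705 and 0.00349). Calcoco1, an autophagy receptor, had 0.94 and 1.35 (edgeR adjusted p = 0.668 and 0.00554), and Slc2a8, a glucose transporter of internal membranes, 0.82 and 1.25 (edgeR adjusted p = 0.668 and 0.00327). Gnas, the stimulatory G protein subunit, had 0.98 and 1.53 (edgeR adjusted p = 0.668 and 0.00238), and overlaps antisense transcripts of its imprinted locus. Fam129a, Eps8l1, Grcc10 and Mir6236, the other members of the 10 with the smallest p, had interactions from 1.75 to 2.61 without WT ID8 3 and from 0.91 to 1.38 with it. Exons of Grcc10 overlap Gm45234 and Rnu7 on the same strand.

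Nop56, Mphosph10, Heatr3, Sdc4 and Ifrd1 were among the 10 lower genes with the smallest p without WT ID8 3. Nop56, a component of the snoRNA particles that modify ribosomal RNA, was at 137, 174 and 66.6 CPM in WT ID8 and 75.6, 84.5 and 61.8 CPM in Tim4KO ID8 libraries. Its interaction was -1.11 with 12 and -1.43 with 11 libraries (edgeR adjusted p = 0.668 and 0.0017), and snoRNAs lie within its exons. Mphosph10, a ribosome assembly factor, had -0.96 and -1.28 (edgeR adjusted p = 0.668 and 0.00327), and Heatr3, which helps to import a ribosomal protein, -1.07 and -1.42 (edgeR adjusted p = 0.668 and 0.00124). Sdc4, the proteoglycan syndecan-4, was at 58.6, 74.2 and 9.49 CPM in WT ID8 and 16.8, 18.9 and 18.6 CPM in Tim4KO ID8 libraries, so that WT ID8 3 was the lowest of the 6. Its interaction was -1.74 (SE 0.85, edgeR adjusted p = 0.674) with all libraries and, without WT ID8 3, -2.24 (SE 0.28, edgeR adjusted p = 0.000114). Ifrd1 had -1.10 and -1.47 (edgeR adjusted p = 0.668 and 0.00176).

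**Figure D4:**
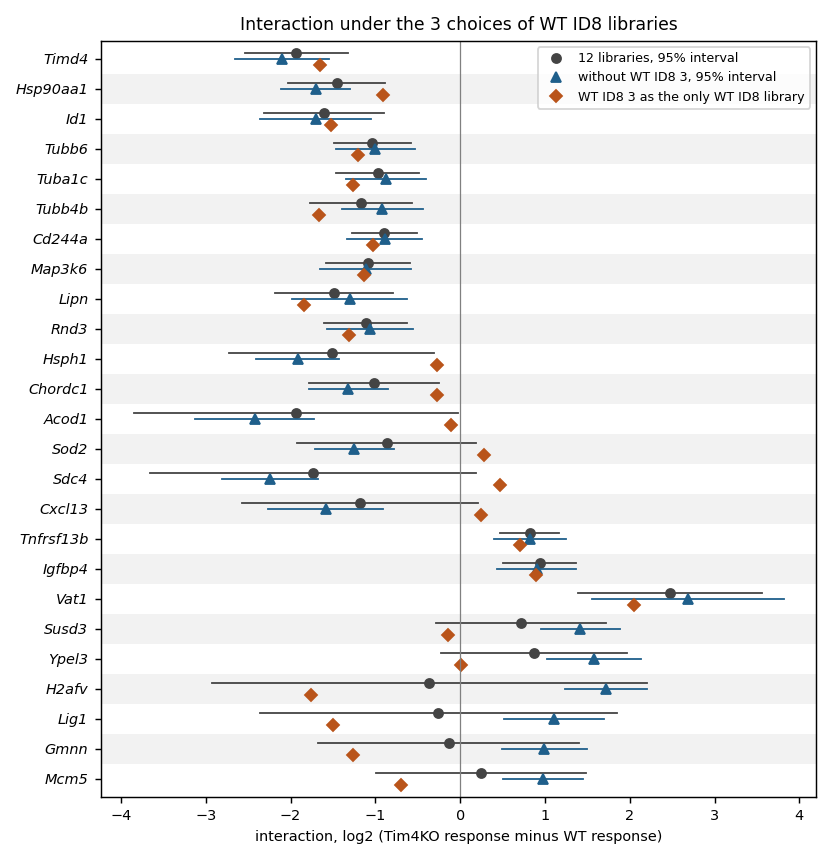
Interaction (log2, Tim4KO response minus WT response) of 25 genes with 12 libraries (circles) and without WT ID8 3 (triangles), both with 95% intervals, and with WT ID8 3 as the only challenged WT library (diamonds, value only). The first 10 genes and Tnfrsf13b, Igfbp4 and Vat1 lie on the same side of 0 in all 3, though not always at the same size, while the diamonds of Sod2, Sdc4, Cxcl13, Susd3, H2afv, Lig1, Gmnn and Mcm5 lie on the other side of 0 from the triangles.

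Genes of DNA replication and division had opposite signs with and without WT ID8 3. Over the 39 genes of the cell cycle list the median interaction was -1.81 with 12 libraries, 34 below 0, and 0.58 without WT ID8 3, 5 below 0. At an unadjusted p under 0.05 there were 0 in either direction with 12 libraries, where 4.36% of all genes were lower and 3.08% higher. Without WT ID8 3 there were 12 higher and 0 lower, where 6.01% and 8.64% of all genes were. Mki67, the proliferation antigen Ki-67, was at 14.8, 11.3 and 380 CPM in WT ID8 and at 19.8, 23.1 and 21.1 CPM in Tim4KO ID8 libraries, and Top2a, a topoisomerase of dividing cells, at 20.7, 20.4 and 405 CPM and at 28.9, 40.4 and 29.9 CPM. Neither was called in either fit, with interactions of -2.95 and 0.44 for Mki67 and -2.21 and 0.65 for Top2a (edgeR adjusted p from 0.712 to 0.876). Mcm5, a subunit of the replicative helicase, rose in both genotypes. It went from 23.8 ± 2.21 to 75.8, 68.9 and 216 CPM in WT and from 16.7 ± 3.11 to 91.0, 125 and 87.9 CPM in Tim4KO (SD, n = 3), with an interaction of 0.24 and, without WT ID8 3, 0.97 (edgeR adjusted p = 0.916 and 0.0215).

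H2afv, a variant of histone H2A, was at 10.5, 9.02 and 101 CPM in WT ID8 and at 28.2, 23.8 and 25.1 CPM in Tim4KO ID8 libraries. Its interaction was -0.36 (SE 1.12, edgeR adjusted p = 0.943) with 12 libraries, 1.72 (SE 0.24, edgeR adjusted p = 0.000295) without WT ID8 3, and -1.76 with it as the only challenged WT library. Lig1, a DNA ligase, had -0.26, 1.11 and -1.50 in the same order (edgeR adjusted p = 0.95 with 12 and 0.0423 with 11 libraries), and Gmnn, the replication inhibitor geminin, -0.14, 0.99 and -1.26 (edgeR adjusted p = 0.967 and 0.0277). For these genes the sign of the Tim4 dependence is set by which challenged WT libraries are used, and no direction is given for them here.

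**Figure D5:**
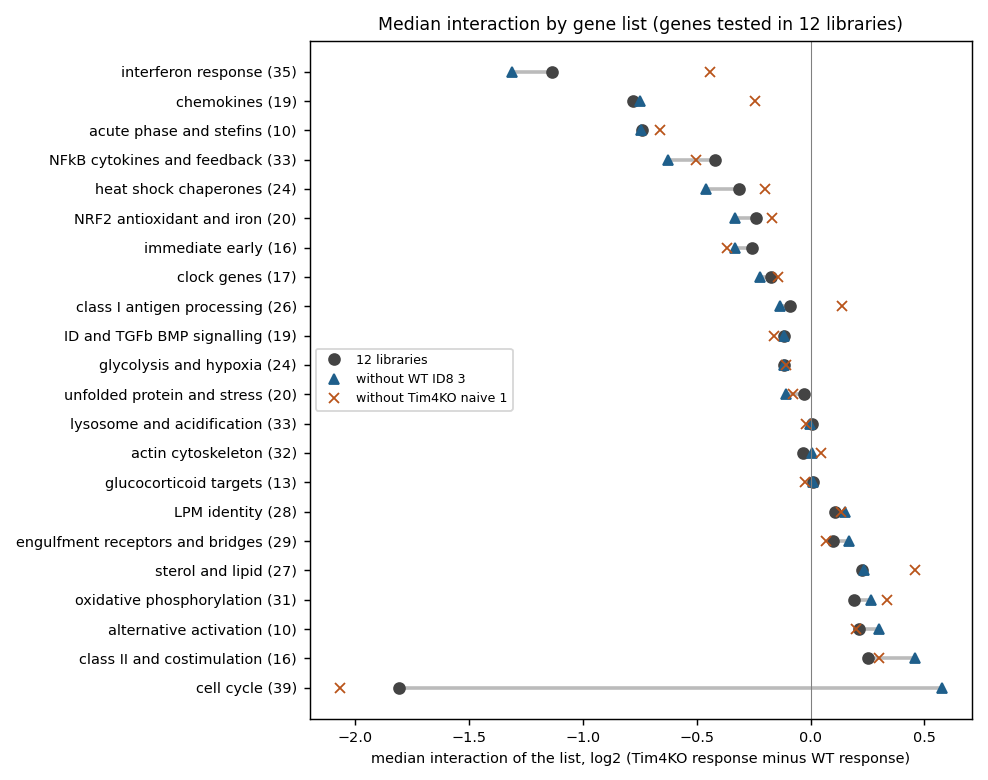
Median interaction (log2) of 22 gene lists, with the number of genes tested in brackets, for 12 libraries (circles), without WT ID8 3 (triangles) and without Tim4KO naive 1 (crosses); the line joins the first 2. The interferon, chemokine, acute phase, NF-kB and heat shock lists lie below 0 in all 3, the cell cycle list moves from -1.81 to 0.58, and the interferon list moves from -1.14 to -0.44 without Tim4KO naive 1.

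Engulfment, lysosome and actin genes are closest to the known work of Tim4. Of 29 engulfment receptors and bridging molecules, which bind or tether dying cells, 0 were called with 12 libraries, and the median was 0.10. At an unadjusted p under 0.05, 0 were lower and 2 higher, where 4.36% and 3.08% of all genes were. Without WT ID8 3 the median was 0.17 and 2 of 29 were called, where 2.12% of all genes were, Msr1 as lower and Itgb3 as higher. Itgb3, the beta-3 integrin subunit that pairs with the alpha-v chain to bind bridged dying cells, was at 20.9 ± 2.23 CPM in WT naive and 26.5 ± 3.03 CPM in Tim4KO naive cells (SD, n = 3). After challenge it was at 3.91, 3.44 and 9.35 CPM in WT and 12.7, 10.4 and 12.3 CPM in Tim4KO libraries, which did not overlap. Its interaction was 0.69 and, without WT ID8 3, 1.35 (edgeR adjusted p = 0.697 and 0.00631). The scavenger receptor Msr1 had an interaction of -0.68 and, without WT ID8 3, -0.96 (edgeR adjusted p = 0.668 and 0.0225).

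Lysosome genes had a median interaction of 0.01 over 33 genes, of which 18 rose in WT and 16 in Tim4KO with 12 libraries, and actin cytoskeleton genes -0.03 over 32, of which 21 rose in each genotype, where 19.5% of all genes rose in WT and 11.5% in Tim4KO. With upper-quartile scaling these medians were 0.13 and 0.10. Of 24 glycolysis genes 18 rose in WT and 15 in Tim4KO, with a median interaction of -0.12, which was 0.01 with upper-quartile scaling. Acute phase genes and stefins had interactions below 0 for 10 of 10 tested, with a median of -0.74, but edgeR called 0 of them in either fit, and 2 of 10 were lower at an unadjusted p under 0.05 with 12 libraries. The identity genes of large peritoneal macrophages had a median of 0.11 over 28, with 2 lower and 2 higher at an unadjusted p under 0.05 and 0 called by edgeR in either fit. Sterol and lipid genes had a median of 0.23 over 27 with 1 lower and 3 higher, immediate early genes -0.26 over 16 with 3 lower, unfolded protein response genes -0.03 over 20 with 1 higher, and clock genes -0.17 over 17 with 1 lower, all at an unadjusted p under 0.05 with 12 libraries. At that threshold 4.36% of all genes were lower and 3.08% higher. Glucocorticoid targets had a median of 0.01 over 13 and alternative activation genes 0.21 over 10. In the fit without WT ID8 3, edgeR called 1 of 33 lysosome genes lower, and 1 lower and 1 higher of 32 actin genes. It called 2 of 25 glycolysis genes, 1 of 27 sterol and lipid genes and 1 of 17 clock genes lower. Of all genes, 1.32% were called lower and 0.794% higher. The immediate early, unfolded protein, glucocorticoid and alternative activation lists had 0 calls. The medians were -0.002 (lysosome), 0.008 (actin), -0.12 (glycolysis), 0.23 (sterol and lipid) and -0.22 (clock).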

How the data were processed

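Raw counts per gene, whole numbers for 57010 genes in 12 libraries, were deposited by the authors as 1 table, and 52029 of the gene IDs matched a name. The extraction used an RNeasy micro kit, and the SMART-Seq mRNA LP kit served for library preparation, per the labels' protocols. The submitters' processing notes name FastQC, STAR 2.5 and the builds mm10 and GRCm39 without roles. The counting tool, annotation, strand setting and treatment of multi-mapping reads are not given in the sources used here.

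Counts were filtered with filterByExpr by group, scaled with TMM and fitted over all 4 groups with robust quasi-likelihood in edgeR 4.0.16 (R 4.3.3), with Benjamini-Hochberg adjusted p under 0.05 as the threshold. Residual degrees of freedom were 8 with 12 libraries and 7 with 11, and CPM levels use the scaling of all 12. The SE is the log2 change divided by the root of F. Every other p named here is from the same edgeR fits. Alternatives used DESeq2 1.42.0 and limma 3.58.1. The steps were tested on simulated data. Pairs of libraries of a group differed by more than sampling noise, so none was treated as a copy.

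The members and the 22 gene lists were chosen with earlier results of these data known. Named are Timd4, the 12 genes of each sign with the smallest interaction p with 12 libraries, the 10 of each sign called without WT ID8 3 (all with a mean count of at least 50), and up to 3 genes per list. Chosen after their values were seen were Sod2, Il1rn, Stip1, Hspd1, Hspe1, Ptges3, Cacybp, Mcm5, Top2a, Mki67, Lig1, Gmnn, Cxcl13, Ccl2, Tnf, Il6, Il1b, Tfrc, Rsad2, Usp18, Ddx58, Itgb3, Tubb4b, Srrt, Kpna2, Uqcrq, mt-Co1, H2-K1 and B2m. Overlaps between exons were read from the GENCODE annotation of mm10, and promoter sequences are from RefSeq.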

Additional observations from a re-analysis of the deposited data

How the results depend on the processing

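The count of genes called for the interaction with 12 libraries was 0 with DESeq2 size factors, upper-quartile scaling, a mean count of at least 50, limma voom and the replicate block. It was 73 with no filter on low counts, 11 with DESeq2, 5 with sample quality weights, 2 with the summed background genes as a covariate, 761 with WT ID8 3 as the only challenged WT library (an alternative chosen after seeing the data, in which that library is assumed to vary like the other groups), and 0 to 368 with 1 library left out, including 3 without Tim4KO naive 1. Without WT ID8 3 the 368 calls became 714 with a mean count of at least 50, 757 with DESeq2, and 64 to 634 with 1 more library left out. They stayed between 295 and 482 with the other settings, among them 370 with the replicate block. The WT response count was 3362 to 7230 with 1 library left out, 7731 with WT ID8 3 as the only challenged WT library and 4619 with the replicate block. The Tim4KO response count was 1222 to 3595 with 1 library left out, 5077 with quality weights and 2562 with the block. Same-numbered libraries of different groups correlated between -0.09 and 0.33 in their deviations over 10229 genes, 6 of 18 pairs above 0.1, so the numbers were not taken to pair the libraries.

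Of 87 genes, 1878 of 1909 values under the alternatives to the fit with 12 libraries kept their sign, and 1733 of 1734 of those without WT ID8 3. The sign turned with WT ID8 3 as the only challenged WT library for Susd3 (-0.14), Sdc4 (0.47), Marcksl1 (0.32), Sod2 (0.28), Il1b (0.37), Cxcl13 (0.24), Tfrc (0.45), Itgb3 (-0.10) and Mcm5 (-0.70). With 1 library left out, the values ran from -0.068 to 0.975 for Mcm5, -0.867 to 1.72 for H2afv, -2.79 to 0.654 for Top2a, -3.55 to 0.441 for Mki67, -0.685 to 1.11 for Lig1 and -0.54 to 0.994 for Gmnn, and Mcm5 turned without WT ID8 1 or 2. The sign of H2afv, Top2a, Mki67, Lig1 and Gmnn turned without WT ID8 3, and with the background covariate for H2afv (1.59), Top2a (0.61), Mki67 (0.31), Lig1 (0.95) and Gmnn (0.93). It turned with quality weights for H2afv (1.2), Top2a (0.065), Lig1 (0.76) and Gmnn (0.74), with limma voom for H2afv (0.35), Lig1 (0.20) and Gmnn (0.10), and with the replicate block for H2afv (0.12), Lig1 (0.14) and Gmnn (0.056). With WT ID8 3 and 1 more library left out, Mki67 ran from -0.099 (WT naive 3 left out) to 0.824. Where values turned, the cause was not tested. Depth limits genes near 3 counts, such as Il1b and Ccl12.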
